A study of Homo sapiens with 36 samples.

Results

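Control cells of the breast cancer lines MDA231 and SUM159PT were compared by gene expression arrays, as the starting point of a study of DUSP4 and of the MEK inhibitor selumetinib. The members are 6 of the 36 arrays, 3 titled MDA231 siCONTROL and 3 titled SUM159PT siCONTROL, lettered A to C in each line. Every difference is the log2 level in MDA231 minus that in SUM159PT, so a positive value means a higher level in MDA231. A difference of 1 is 2-fold. All 17958 genes with a probe set of a single gene symbol were tested.

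Both groups were reverse transfected with 10 nM of a non-targeting siRNA pool, given DMSO as vehicle, and harvested 96 h after transfection, so "control" here is not unhandled cells. MDA231 is the MDA-MB-231 line, grown in DMEM with 10% serum. SUM159PT was grown in DMEM/F12 with 5% serum and 0.5 ug/mL hydrocortisone, a glucocorticoid. Cell line and medium therefore cannot be told apart in any value below. Each group is 1 established line, and nothing in the labels ties the letters to separate dishes or days. The p-values rest on the spread within the 12 groups of all 36 arrays, pooled in 1 fit, and this spread may be technical. The other arrays hold the third line BT549 (10% serum), siRNA against DUSP4 (siDUSP4, 10 nM, 96 h, with DMSO), and control siRNA with 1 uM selumetinib for the last 4 h or 24 h.

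For the arrays of SUM159PT and BT549 the title and cell line field contradict the source name and description, and the titles were followed. The retinoblastoma gene RB1, which BT549 is known to have lost, read 10.31 ± 0.09 in MDA231 and 9.40 ± 0.0085 in SUM159PT, and 6.83 ± 0.16 in the arrays titled BT549 (log2 level, SD, n = 3 each). CDKN2A, the cell cycle inhibitor p16, read 4.23 ± 0.17 in MDA231, 4.12 ± 0.09 in SUM159PT and 9.82 ± 0.11 in the arrays titled BT549. The level of RB1 was thus lowest where the title says BT549. Results with the source names followed are in the closing section.

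Both lines are basal B, or claudin-low, triple-negative cell lines: they lack oestrogen receptor, progesterone receptor and HER2 amplification and look mesenchymal. Both carry activating mutations in the RAS-RAF pathway, though not in the same gene. RAS proteins pass growth signals through RAF and MEK to the kinase ERK, which enters the nucleus and switches on a set of genes. Several of those genes, among them the DUSP phosphatases and Sprouty proteins, feed back to switch ERK off, so their mRNA is commonly read as a measure of ERK output.

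The lines differed at 8048 genes at an adjusted p under 0.05, 44.8% of those tested (limma, Benjamini-Hochberg). With a further minimum of 2-fold, 2587 genes were called, 14.4% of those tested, 1327 higher in MDA231 (7.39%) and 1260 lower (7.02%). At 4-fold the counts were 422 higher (2.35%) and 443 lower (2.47%). In none of the 2587 genes did the 3 arrays of one line overlap those of the other, while 57.7% of all genes tested did not overlap. The median difference over all genes was -0.007 and the median size 0.26 on the log2 scale. The largest differences were larger on the SUM159PT side: 13 genes were higher in MDA231 by more than 5 on the log2 scale, and 59 were lower by more than 5. Arrays have no true zero, so the 356 olfactory receptor genes, taken as silent in these cells, served as a yardstick: 95% of them lay below 4.53 in MDA231 and below 4.64 in SUM159PT. By that yardstick 249 of the higher genes (18.8%) were at the level of silent genes in SUM159PT, and 246 of the lower genes (19.5%) were at that level in MDA231. RNA came from whole cultures, so fewer cells expressing a gene and less RNA per cell cannot be told apart.

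**Figure D1:**
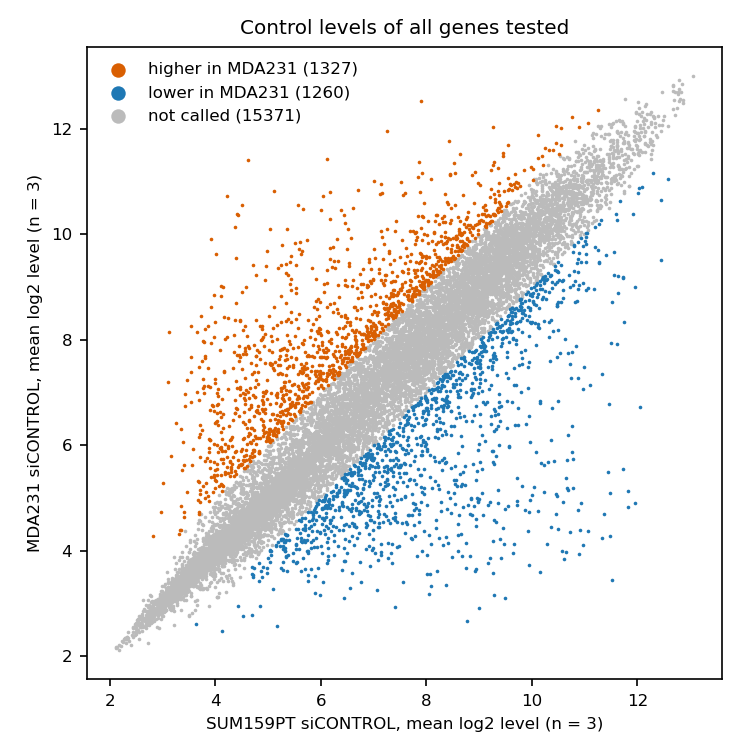
Mean log2 level of each of the 17958 genes in MDA231 (vertical axis) against SUM159PT (horizontal axis), 3 control arrays each. Orange points are the 1327 genes called higher in MDA231, blue points the 1260 called lower, and grey points the rest. Genes at the far left or the bottom are at the level of olfactory receptors in one line.

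The lines can also be compared on the arrays of the other 3 conditions, whose levels are separate measurements, although the fit shares 1 estimate of the spread over all 36 arrays. Of the 2587 genes, 2089 were again at least 2-fold apart in the same direction under siDUSP4, 2092 after 4 h of selumetinib and 1927 after 24 h. In those conditions 15.4%, 13.9% and 13.2% of all genes were called in either direction. The same 2-fold call held in all 4 conditions for 759 of the higher genes and 825 of the lower genes. At 24 h 1 higher and 4 lower genes were called in the opposite direction.

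The gene with the largest positive difference was KRT19, which encodes keratin 19 of luminal epithelial cells. It read 11.35, 11.47 and 11.41 in MDA231, against 4.87, 4.41 and 4.57 in SUM159PT, a difference of 6.79 ± 0.15 (limma SE, adjusted p = 6.09e-28). Its SUM159PT mean of 4.62 lay just below the olfactory receptor limit of 4.64, and against that limit KRT19 was at least 109-fold higher. TSPAN5, a tetraspanin of the cell surface, read 10.77, 10.72 and 10.69 in MDA231, against 4.10, 4.06 and 4.49 in SUM159PT. PYGL, the liver form of glycogen phosphorylase, read 10.54, 10.62 and 10.51 in MDA231, against 4.55, 4.33 and 4.62 in SUM159PT. CHRDL1, a secreted antagonist of bone morphogenetic proteins, and CALB2, the calcium-binding protein calretinin, were higher by 5.99 and 5.97. Next came TNFSF15, a cytokine of the TNF family, at 10.47, 10.44 and 10.18 in MDA231, against 4.65, 4.46 and 4.18 in SUM159PT. The others of the 15 largest were PLIN2 (the lipid droplet coat protein perilipin 2), PXDN (peroxidasin, which crosslinks basement membrane collagen), IGF2BP3 (an RNA-binding protein), ANKRD1 (a target of the YAP coactivator), TMEM71, NIBAN1, LRRN1, TES (testin, of focal adhesions) and MLLT3 (a chromatin reader). The SUM159PT mean lay below the olfactory receptor limit for 11 of the 15, so their order is that of the measured means only. With that limit in place of any lower mean, the 15 were at least 11.4-fold (LRRN1) to 109-fold (KRT19) higher.

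On the other side the largest difference was ORM1, an acute-phase protein of plasma. It read 3.66, 3.06 and 3.59 in MDA231, against 11.56, 11.49 and 11.48 in SUM159PT, a difference of -8.07 ± 0.20 (adjusted p = 1.44e-26). Against the MDA231 limit of 4.53 it was at least 126-fold lower. The near-identical ORM2 could share its probes. MMP2, the gelatinase that cleaves type IV collagen, read 3.96, 4.37 and 4.47 in MDA231, against 11.51, 11.47 and 11.45 in SUM159PT. The cell surface peptidases ANPEP (aminopeptidase N) and MME (neprilysin) were lower in MDA231 by 7.04 and 6.69 on the log2 scale: MME read 4.79, 3.72 and 4.61 in MDA231, against 11.05, 11.08 and 11.05 in SUM159PT. The receptor tyrosine kinase ROS1 read 4.04, 3.76 and 4.12 in MDA231, against 10.64, 10.63 and 10.64 in SUM159PT. ORM1, MMP2 and ROS1 lay below the olfactory receptor limit on all 3 MDA231 arrays. HBE1, the embryonic globin, and MYBPC1, a protein of slow skeletal muscle, also had their high level in SUM159PT, at 11.83 and 10.90 on average, against 4.83 and 3.94 in MDA231. The others of the 15 were GALNT15 (a glycosyltransferase), LBP and SERPINA3 (acute-phase proteins), CD109 (a surface protein that binds TGF-beta), SPARC and DCN (matrix proteins), NETO2 (an auxiliary subunit of glutamate receptors) and PDGFRA (the PDGF receptor alpha). The MDA231 mean lay below the limit for 11 of the 15, and with the limit in place of any lower mean the 15 were at least 49.2-fold (DCN) to 132-fold (ANPEP) lower.

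The third line sided with neither as a whole. Of the genes higher in MDA231, the mean control level of the arrays titled BT549 was nearer to MDA231 for 604 (45.5%) and nearer to SUM159PT for 723. Of the genes lower in MDA231 it was nearer to MDA231 for 810 (64.3%), against 51.1% of all genes. CHRDL1 read 10.99 there, nearer to MDA231, and KRT19 read 4.47, nearer to SUM159PT.

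ERK output genes were higher in MDA231. Of 31 measured genes of this list, 16 were called higher (51.6%, against 7.39% of all genes) and 0 lower, and the median difference was 1.05. DUSP6, the cytoplasmic phosphatase that acts mainly on ERK, read 11.55, 11.22 and 11.32 in MDA231, against 7.85, 7.85 and 7.89 in SUM159PT. Its difference was 3.50 ± 0.21 (adjusted p = 5.33e-16), or 11.3-fold. DUSP4, the nuclear phosphatase that the study silenced, read 10.15, 10.03 and 9.99 in MDA231, against 7.28, 7.08 and 7.06 in SUM159PT. That is 2.92 ± 0.17 (adjusted p = 3.43e-16), or 7.55-fold. Both phosphatases were above the olfactory receptor limit on every control array, and the arrays of the lines did not overlap.

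LIF, a cytokine of the IL-6 family, read 7.75, 7.91 and 8.0 in MDA231, against 4.29, 4.53 and 4.51 in SUM159PT. LIF was thus below the olfactory receptor limit of 4.64 on each SUM159PT array. A second, dimmer probe set of LIF differed by 0.47. PHLDA1, a nuclear protein induced by growth factors, read 11.14, 11.06 and 11.19 in MDA231, against 8.48, 8.44 and 8.43 in SUM159PT. Not every member moved this way: 4 of the 31 were lower at an adjusted p under 0.05, none by 2-fold. These were MYC (-0.58), TRIB1 (-0.61), EPHA4 (-0.62) and BCL2L11 (-0.76), named after their values were seen. After 24 h of selumetinib BCL2L11 was higher than in control cells, by 0.54 in MDA231 and 0.30 in SUM159PT. MYC and TRIB1 were lower in both lines. These changes within a line were not tested, and the lower BCL2L11 of MDA231 is not read here as lower ERK output. Among 11 measured MAP kinase phosphatases, DUSP4, DUSP5 (2.02) and DUSP6 were higher by 2-fold (27.3%, against 7.39%) and 0 lower.

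**Figure D2:**
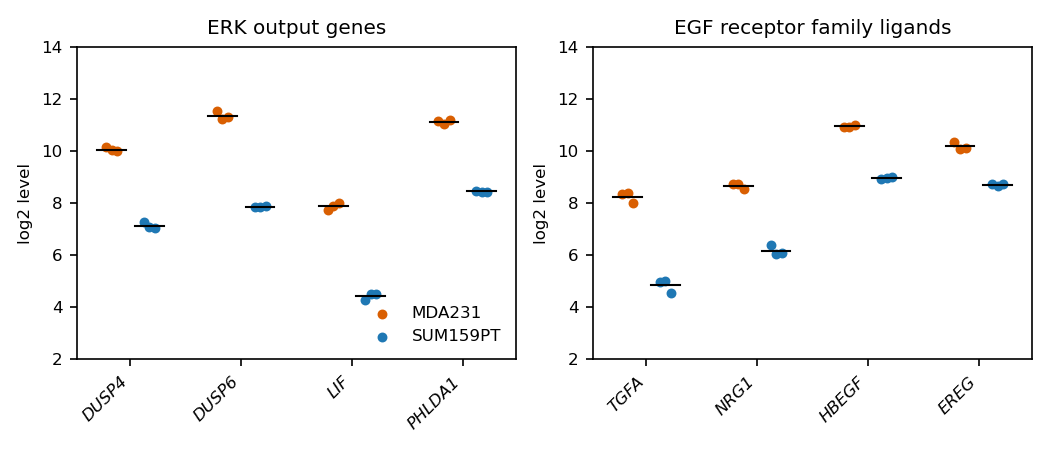
Log2 level on each control array of 4 ERK output genes (left) and 4 ligands of the EGF receptor family (right), MDA231 in orange and SUM159PT in blue, with a bar at each group's mean of 3 arrays. The arrays of the lines do not overlap for any of the 8 genes.

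Several ligands of the EGF receptor family, which can start the same pathway from outside, were also higher in MDA231. Their part in the ERK output genes was not tested. Of 10 ligands measured, 4 were higher by 2-fold (40.0%, against 7.39%) and 0 lower (against 7.02%), and 6 were not called. At an adjusted p under 0.05 alone 6 were higher and 1 lower. TGFA (transforming growth factor alpha) read 8.37, 8.41 and 8.0 in MDA231, against 4.96, 5.02 and 4.54 in SUM159PT. NRG1 (neuregulin) was higher by 2.51, HBEGF by 1.99 and EREG (epiregulin) by 1.48. Of the receptor family, EGFR was higher by 0.96 ± 0.10 (adjusted p = 1.03e-09), short of 2-fold, and ERBB2 lower by 0.45 on the log2 scale.

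Of 22 measured genes of the RAS, RAF, MEK and ERK list, 1 was higher by 2-fold (4.55%, against 7.39%) and 1 lower (4.55%, against 7.02%), shares not far from those of all genes, and the median difference was 0.09. The one called higher was SOS2, which loads RAS with GTP, at 9.83, 9.68 and 9.54 in MDA231, against 8.55, 8.62 and 8.61 in SUM159PT. The one called lower was NF1, whose product neurofibromin switches RAS off. It read 8.05, 8.31 and 8.14 in MDA231, against 10.43, 10.34 and 10.41 in SUM159PT, a difference of -2.23 ± 0.098 (adjusted p = 1.87e-19). HRAS, which carries the activating mutation of SUM159PT, was higher in MDA231 by 0.99 ± 0.14 (adjusted p = 2.21e-07), at 8.07, 8.27 and 8.49 in MDA231, against 7.26, 7.40 and 7.20 in SUM159PT.

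Of 38 receptor tyrosine kinases, 3 were higher (7.89%, against 7.39%) and 6 lower (15.8%, against 7.02%). PDGFRA, a receptor of fibroblasts and other mesenchymal cells, read 4.61, 4.10 and 4.46 in MDA231, against 11.05, 10.85 and 10.86 in SUM159PT, and PDGFRB was lower by 3.75 on the log2 scale. The collagen receptors DDR2 and DDR1 were lower by 2.54 and 1.76. MERTK and AXL, the kinases that bind GAS6, were higher by 3.16 and 1.37, and EPHA2 by 1.35. Of 26 genes of the PI3K, AKT and mTOR pathway, 3 were higher (11.5%, against 7.39%) and 5 lower (19.2%, against 7.02%). They included the regulatory subunit PIK3R1 (-1.86), the mTOR inhibitor DEPTOR (-1.73) and the transcription factor FOXO1 (-1.47) on one side, and the adaptor IRS1 (1.43) and the catalytic subunit PIK3CD (1.36) on the other.

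The labelled cell type was checked against its markers. The oestrogen receptor ESR1 (4.09 in MDA231 and 4.31 in SUM159PT) and the progesterone receptor PGR (3.40 and 3.57) were at the level of silent genes in both. E-cadherin, CDH1, the defining adhesion protein of epithelium, was so too, at 4.34, 4.21 and 4.35 in MDA231, against 4.37, 4.29 and 4.04 in SUM159PT. VIM (vimentin) read 12.15 and 11.99, and ZEB1, a repressor of epithelial genes, 10.02 and 9.45. CD44 read 12.07 and 12.04, a difference of 0.029 ± 0.073 (adjusted p = 0.81). CD24, low in claudin-low cells, was lower in MDA231 by 0.78 on the log2 scale. Of the 7 luminal markers fixed beforehand, which include ESR1 and PGR, 5 in MDA231 and 4 in SUM159PT were above the olfactory receptor limit. GATA3 read 6.36 in MDA231 and 6.42 in SUM159PT, and FOXA1 6.50 and 6.03. The keratins KRT8 (10.98 and 11.12) and KRT18 (10.70 and 11.10) of simple epithelium were within 1.32-fold.

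Some epithelial transcripts were higher in MDA231. Of 44 epithelial junction and luminal genes, 12 were higher by 2-fold (27.3%, against 7.39%) and 2 lower (4.55%, against 7.02%), but the list's median difference was -0.03, and 30 members were not called. CLDN7, a tight junction claudin, read 8.22, 8.54 and 8.34 in MDA231, against 4.80, 4.71 and 4.80 in SUM159PT. EPCAM, the epithelial adhesion molecule, read 8.46, 8.55 and 8.17 in MDA231, against 5.62, 5.54 and 5.39 in SUM159PT. CLDN4 was higher by 2.29, while CLDN3 differed by 0.14 ± 0.11 (adjusted p = 0.37). PKP2 (a desmosome plakophilin) was higher by 4.70 and the protease inhibitor SPINT2 by 4.42. KRT7 (-1.83) and the junction protein JUP, plakoglobin (-1.66), were the 2 on the other side. Of the basal keratins, KRT5 read 4.38 in MDA231 and 6.35 in SUM159PT, and KRT15 was higher in MDA231 by 2.34. SOX9, a transcription factor of luminal progenitors, was higher by 4.24. Of 25 breast stem-like markers 4 were higher by 2-fold (16.0%, against 7.39%) and 1 lower (4.0%, against 7.02%), with a median difference of 0.23. ALDH1A1, an aldehyde dehydrogenase used as a stem cell marker, was lower by 2.40 on the log2 scale. The related ALDH1A3 was higher by 0.72, short of 2-fold.

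Cadherins differed in both directions: of 22 cadherins and protocadherins 3 were higher (13.6%, against 7.39%) and 5 lower (22.7%, against 7.02%). CDH2, N-cadherin, read 5.98, 5.29 and 5.87 in MDA231, against 10.68, 10.65 and 10.67 in SUM159PT, a difference of -4.95 ± 0.14 (adjusted p = 3.68e-25). CDH11, the mesenchymal cadherin 11, was the other way round, at 11.09, 10.95 and 10.97 in MDA231, against 7.07, 7.07 and 6.87 in SUM159PT. CDH6 was lower in MDA231 by 3.60 on the log2 scale and the desmosomal cadherin DSC2 higher by 3.18. Of 26 factors and genes of epithelial-mesenchymal transition, 2 were higher (7.69%, against 7.39%) and 10 lower (38.5%, against 7.02%). TWIST1, a transcription factor of that transition, read 5.78, 5.53 and 5.51 in MDA231, against 8.65, 8.76 and 8.79 in SUM159PT. TCF4 and the TGF-beta co-receptor ENG were lower by 3.30 and 3.58, and NT5E, the ectonucleotidase CD73, was higher by 2.15.

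Genes of the extracellular matrix were lower in MDA231. Of 51 collagens and matrix proteins, 28 were called lower (54.9%, against 7.02% of all genes) and 3 higher (5.88%, against 7.39%), with a median difference of -1.20. SPARC, a collagen-binding glycoprotein, read 4.83, 5.38 and 5.20 in MDA231, against 11.83, 11.82 and 11.84 in SUM159PT. DCN, the proteoglycan decorin, read 3.68, 3.52 and 3.59 in MDA231, against 10.08, 10.39 and 9.97 in SUM159PT. COL6A3, a chain of collagen VI, was lower by 5.96 and the calcification inhibitor MGP by 5.69 on the log2 scale. In MDA231 decorin and MGP were at the level of silent genes. Fibronectin, FN1, was lower by only 0.83 on the log2 scale. The 3 matrix genes on the other side were COL13A1 (3.01), TNC, tenascin C (2.25), and LAMB3, a chain of an epithelial laminin (1.98). Of 26 integrins and CD44-type adhesion genes 7 were higher (26.9%, against 7.39%) and 7 lower (26.9%, against 7.02%). The laminin receptor chains ITGA6 and ITGB4 were higher by 2.09 and 1.68, and ITGB3 of the vitronectin receptor and ITGA10 were lower by 3.59 and 2.85.

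**Figure D3:**
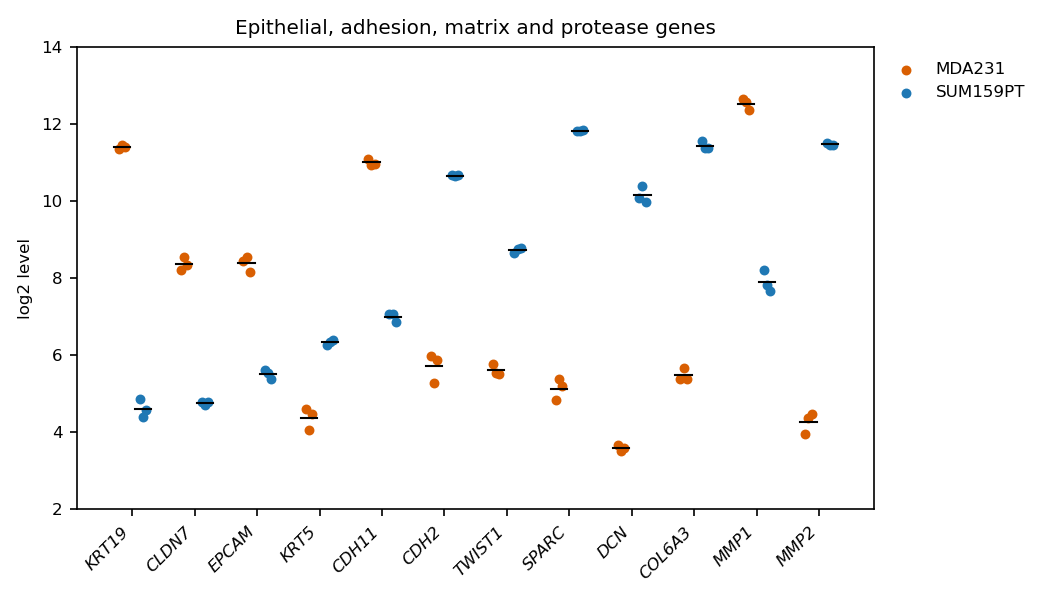
Log2 level on each control array of 12 genes of epithelial, adhesion, matrix and protease function, MDA231 in orange and SUM159PT in blue, with a bar at each group's mean of 3 arrays. MMP1 and MMP2, and CDH11 and CDH2, lie on opposite sides.

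Matrix-degrading enzymes differed in both directions. Of 39 proteases, plasminogen genes and inhibitors, 11 were higher (28.2%, against 7.39%) and 6 lower (15.4%, against 7.02%). MMP1, the interstitial collagenase, read 12.65, 12.56 and 12.37 in MDA231, against 8.22, 7.82 and 7.66 in SUM159PT, a difference of 4.63 ± 0.16 (adjusted p = 1.65e-22), opposite to MMP2. PLAU, the urokinase plasminogen activator, read 10.69, 10.75 and 10.81 in MDA231, against 7.16, 7.10 and 7.08 in SUM159PT. ADAM8 and ADAMTS1 were higher by 4.16 and 2.55, and ADAM12 and the inhibitors SERPINB5 (maspin) and SERPINA1 (alpha-1-antitrypsin) lower by 2.94, 4.16 and 3.49. Of 25 genes of published breast cancer metastasis signatures, some of them defined in derivatives of MDA-MB-231, 13 were higher (52.0%, against 7.39%) and 6 lower (24.0%, against 7.02%), and this list is not independent of the line. PTGS2, MMP1 and LTBP1 were among those on the MDA231 side. MMP2, SPARC and the decoy receptor IL13RA2 were among those on the SUM159PT side.

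Of 39 chemokines and cytokines 8 were higher (20.5%, against 7.39%) and 11 lower (28.2%, against 7.02%), and of 24 NF-kB targets 4 were higher (16.7%) and 6 lower (25.0%). IL1B, interleukin 1 beta, read 10.49, 10.52 and 10.42 in MDA231, against 5.65, 5.48 and 5.85 in SUM159PT, a difference of 4.82 ± 0.19 (adjusted p = 5.29e-21). IL1A was higher by 1.99. PTGS2, the cyclooxygenase COX-2, read 9.59, 9.28 and 9.39 in MDA231, against 4.80, 4.89 and 4.44 in SUM159PT. The neutrophil chemokine CXCL8 read 10.23, 9.47 and 9.34 in MDA231, against 7.34, 7.28 and 7.22 in SUM159PT, and PTX3, a pentraxin, was higher by 3.35. Array A was the highest of the 3 MDA231 arrays for CXCL8, and all 3 stood above every SUM159PT array.

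CCL5, a chemokine of T cells, read 3.92, 4.52 and 3.95 in MDA231, against 9.32, 9.54 and 9.57 in SUM159PT. CXCL10 read 3.93, 3.86 and 3.93 in MDA231, against 7.88, 8.12 and 8.04 in SUM159PT, and CXCL11 was lower by 4.27 on the log2 scale. All 3 chemokines were at or below the level of silent genes in MDA231. Complement C3 averaged 6.73 in MDA231 and 12.05 in SUM159PT, and SAA1 (serum amyloid A) was lower by 3.97. The superoxide dismutase SOD2, an NF-kB target, was lower by 2.54.

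Interferon response genes were lower in MDA231. Of 31 measured, 19 were called lower (61.3%, against 7.02% of all genes) and 1 higher (3.23%, against 7.39%), with a median difference of -1.32. OASL, an interferon-induced antiviral protein, read 5.72, 5.49 and 5.74 in MDA231, against 9.20, 9.29 and 9.33 in SUM159PT. IFI44L read 5.72, 5.81 and 5.50 in MDA231, against 8.88, 9.03 and 9.15 in SUM159PT. GBP4, a guanylate-binding protein, and IFITM1, a membrane protein that blocks virus entry, were lower by 3.08 and 2.95 on the log2 scale. The one called higher was RIGI, the cytoplasmic sensor of viral RNA, at 1.44. In the treated arrays, none of which is a control array, 15 of the 31 were lower under siDUSP4 (against 7.74% of all genes), 19 after 4 h of selumetinib (against 7.71%) and 14 after 24 h (against 6.28%).

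Interferon acts through the ISRE, the interferon-stimulated response element, here searched on both strands as GAAA, any 2 bases, GAAA in the 250 bases before the gene start. It was found in 14 of the 24 interferon genes with a promoter sequence (58.3%) and in 2.58% of the 13861 tested genes with one. Of those 14 genes 9 were called lower in MDA231, and of the 10 without a match 5 were, with median differences of -1.59 and -0.75. The stretches below are from RefSeq (GRCh38.p14), 5′ to 3′ on the strand of the gene, with the motif in capitals. IFI44L and IFITM1 were chosen as named members with a match, and BST2 (tetherin, which holds budding virus at the cell surface) and OAS3 (an oligoadenylate synthetase), which holds the motif and was not called, were added after their values were seen.
IFI44L: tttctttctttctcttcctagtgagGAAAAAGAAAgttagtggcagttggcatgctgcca
IFITM1: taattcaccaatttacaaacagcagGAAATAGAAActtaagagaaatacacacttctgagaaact
BST2: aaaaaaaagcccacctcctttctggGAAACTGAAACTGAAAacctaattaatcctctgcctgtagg
OAS3: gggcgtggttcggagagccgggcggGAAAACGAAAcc
They lie at chr1:78620350-78620409 (plus strand), chr11:313975-314039 (plus), chr19:17405720-17405785 (minus) and chr12:112938437-112938473 (plus). The match shown starts 73 bases before the gene start in IFI44L, 40 in IFITM1 and 12 in OAS3. In BST2, where 2 matches overlap, the first starts 130 bases before it. For IFI44L and OAS3 the match nearest to the start was taken, and any match farther away is not shown. BST2 read 6.73, 6.73 and 6.97 in MDA231, against 9.61, 9.59 and 9.65 in SUM159PT. OAS3 read 6.50, 6.52 and 6.56 in MDA231, against 6.51, 6.37 and 6.20 in SUM159PT (adjusted p = 0.247), so the arrays of the lines overlap.

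Promoters of chemokines and of the cytokine TNFSF15 are shown for their matches to other motifs. The NF-kB site was searched as GGGA, any 2 bases, TTCC and found in 1.36% of promoters. The AP-1 site, TGANTCA, was found in 4.86%. Sites that depart from these letters are missed, so a promoter without a match may still hold the site. AP-1 is the dimer of FOS and JUN proteins through which ERK acts on many genes. None of the 3 motifs overlaps another in these stretches.
CXCL10: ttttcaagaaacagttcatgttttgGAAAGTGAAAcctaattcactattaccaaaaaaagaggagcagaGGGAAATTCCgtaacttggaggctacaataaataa
CXCL11: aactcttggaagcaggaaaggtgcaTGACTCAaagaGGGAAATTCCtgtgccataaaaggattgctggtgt
CXCL8: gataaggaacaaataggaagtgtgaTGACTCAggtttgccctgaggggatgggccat
TNFSF15: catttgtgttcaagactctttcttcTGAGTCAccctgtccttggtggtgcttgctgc
CXCL10 (chr4:76023640-76023743, minus strand) holds an ISRE 221 bases and an NF-kB site 177 bases before its start. CXCL11 (chr4:76036112-76036182, minus) holds an AP-1 site at 87 and an NF-kB site at 76 bases. CXCL8 (chr4:73740407-73740463, plus) and TNFSF15 (chr9:114792619-114792675, minus) hold an AP-1 site at 137 and 120 bases. An AP-1 site thus stands both before genes higher in MDA231 (CXCL8 and TNFSF15) and before one lower (CXCL11). It was found in 4.78% of promoters of the genes called higher and 6.49% of those called lower.

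Of the 2 MHC classes, class I loads peptides from inside the cell, and class II, normally of immune cells, those taken up from outside. Of 14 class I genes 5 were lower by 2-fold (35.7%, against 7.02%) and 0 higher (against 7.39%). B2M, the shared light chain, read 9.48, 9.48 and 9.60 in MDA231, against 10.83, 10.93 and 10.85 in SUM159PT. The peptide transporter TAP1 was lower by 1.32, the immunoproteasome subunit PSMB9 by 1.80 and the trimming peptidase ERAP2 by 2.65 on the log2 scale. TAP2 went the other way. It was higher by 0.96, just short of 2-fold, and its other probe sets differed by 1.006 and 1.011. Of 11 class II genes 8 were higher (72.7%, against 7.39%) and 0 lower. HLA-DRA read 10.99, 10.92 and 10.94 in MDA231, against 7.10, 7.17 and 7.15 in SUM159PT. CD74, the invariant chain, read 11.14, 10.87 and 10.97 in MDA231, against 7.70, 7.52 and 7.32 in SUM159PT. HLA-DPB1 and HLA-DMB were higher by 2.82 and 2.06. HLA genes resemble each other and vary between lines, so probes can cross-hybridise or miss an allele, and this was not tested.

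Of the genes that glucocorticoids induce, 12 of 25 were lower in MDA231 (48.0%, against 7.02%), whose medium had no added hydrocortisone. A further 3 were higher (12%, against 7.39%), and the median difference was -0.76. ZBTB16, a transcription factor strongly induced by glucocorticoids, read 5.06, 5.01 and 5.25 in MDA231, against 10.24, 10.16 and 10.26 in SUM159PT, a difference of -5.12 ± 0.15 (adjusted p = 4.69e-24). CRISPLD2 read 4.73, 4.88 and 5.22 in MDA231, against 8.93, 8.92 and 9.08 in SUM159PT. MAOA, monoamine oxidase A, was lower by 3.50 on the log2 scale. SGK1, the serum and glucocorticoid kinase, went the other way, at 6.78, 6.76 and 6.76 in MDA231, against 5.52, 5.45 and 5.53 in SUM159PT, as did ANGPTL4 (1.06) and IGFBP1 (2.38). The part of the medium in these differences was not tested.

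**Figure D4:**
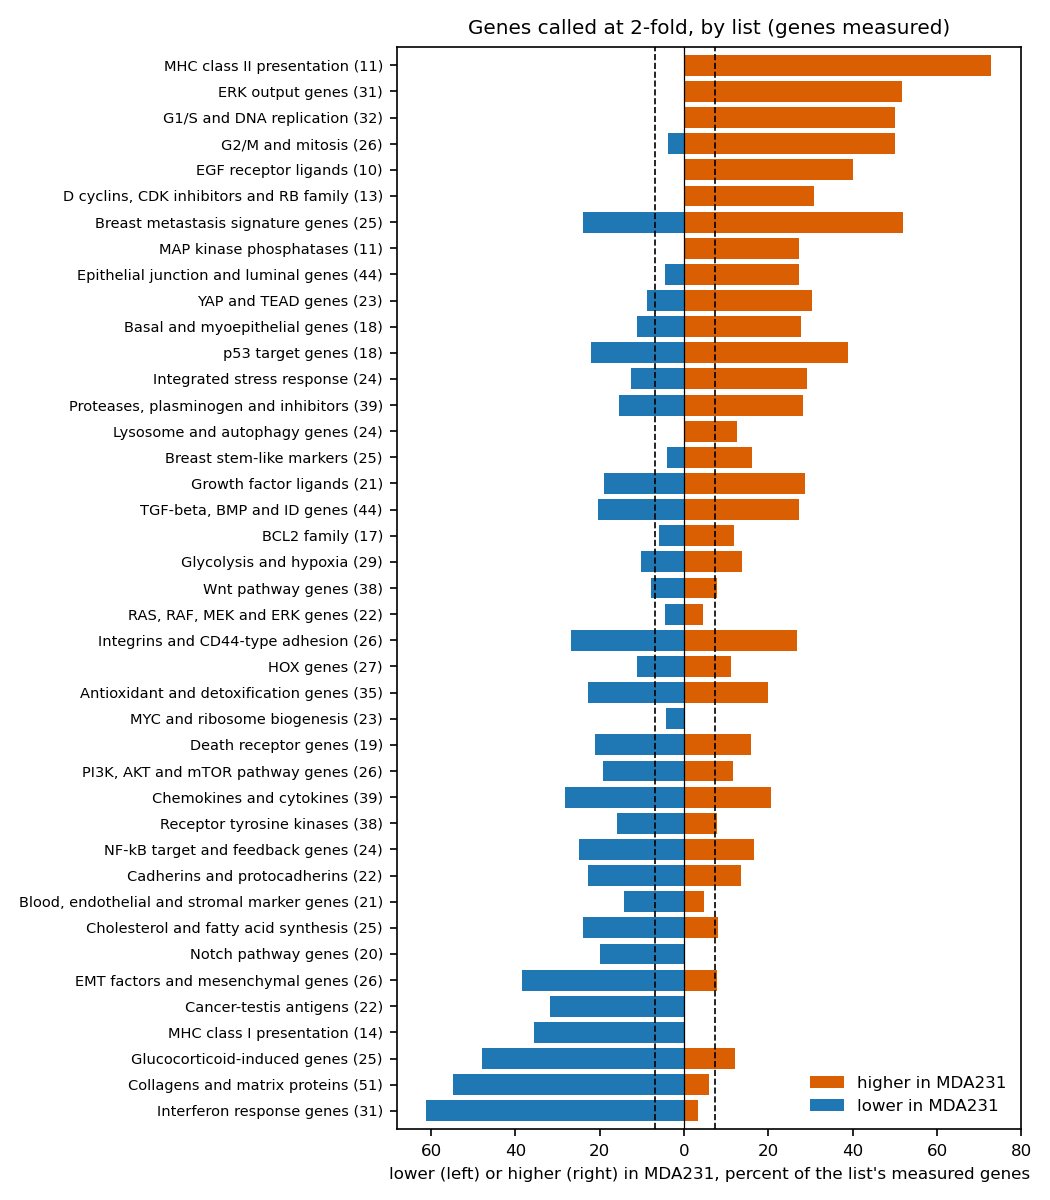
Share of each list's measured genes called at 2-fold, in percent, with genes higher in MDA231 drawn to the right (orange) and genes lower to the left (blue). The dashed lines are the shares over all 17958 genes, 7.39% higher and 7.02% lower. Class II, metastasis, ERK output and cell cycle lists reach farthest to the right, and interferon, matrix and glucocorticoid lists farthest to the left.

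Cell cycle genes were higher in MDA231 in both phase groups tested. Of 32 genes of G1/S and DNA replication 16 were higher by 2-fold (50.0%, against 7.39%) and 0 lower, with a median difference of 1.00. Of 26 genes of G2/M and mitosis 13 were higher (50.0%) and 1 lower (3.85%), with a median of 0.99. E2F7, an E2F family repressor, read 11.14, 11.03 and 11.07 in MDA231, against 7.93, 7.86 and 7.72 in SUM159PT. POLE2 (DNA polymerase epsilon) was higher by 2.14, TK1 (thymidine kinase) by 1.76 and CDC6, which loads the helicase at origins, by 1.55. Of the mitotic genes the phosphatase CDC25C was higher by 1.72, the kinases AURKB and PLK4 by 1.49 each and the kinesin KIF2C by 1.43, while the related phosphatase CDC25B was lower by 1.03. CCND2, cyclin D2, read 10.26, 10.38 and 10.19 in MDA231, against 6.17, 6.10 and 6.22 in SUM159PT. CDK6 was higher by 1.32, the inhibitor CDKN1A (p21) by 1.26, and the RB relative RBL1 by 1.70, though a second probe set of RBL1 differed by 0.21. That probe set averaged 4.40 over all 36 arrays, below the olfactory receptor limit of either line. The cultures' density and growth rate are not in the labels, and their part in this was not tested.

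Genes of cell death were mixed. Of 17 genes of the BCL2 family 2 were higher (11.8%, against 7.39%) and 1 lower (5.88%, against 7.02%). BCL2A1, which protects from death, and PMAIP1 (NOXA), which promotes it, were higher by 2.04 and 1.49, and BMF was lower by 2.02. Of 19 death receptor genes 3 were higher (15.8%, against 7.39%) and 4 lower (21.1%, against 7.02%). The decoy receptor TNFRSF10D and the death receptor TNFRSF21 were higher by 2.04 and 4.07. CASP1, the inflammatory caspase, was lower by 3.67 and FAS by 1.51 on the log2 scale. Of 18 p53 target genes 7 were higher (38.9%, against 7.39%) and 4 lower (22.2%, against 7.02%), with PLK2 (2.51) and SESN1 (-2.17) at the ends.

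Of 44 genes of the TGF-beta, BMP and ID list 12 were higher (27.3%, against 7.39%) and 9 lower (20.5%, against 7.02%), with a median difference of -0.02. FST (follistatin, which binds activin) read 9.93, 9.76 and 9.67 in MDA231, against 5.09, 5.52 and 5.17 in SUM159PT. NOG (noggin, a secreted BMP antagonist) read 9.80, 9.18 and 9.16 in MDA231, against 6.06, 6.24 and 6.31 in SUM159PT. ID2, a direct BMP target, was lower by 1.96 on the log2 scale. Of 23 YAP and TEAD genes 7 were higher (30.4%, against 7.39%) and 2 lower (8.7%, against 7.02%), and the higher ones were led by ANKRD1 (5.31) and CCN2 (2.40). NF2, an upstream inhibitor of YAP, was one of the 2 lower, at 6.98, 7.40 and 7.30 in MDA231, against 9.20, 9.01 and 9.13 in SUM159PT. Of 20 Notch genes 4 were lower (20%, against 7.02%) and 0 higher (against 7.39%): the receptor NOTCH3, the ligand DLL1 and the targets HES1 and NRARP, by 1.07 to 1.85 on the log2 scale. Of 38 Wnt pathway genes 3 were higher (7.89%, against 7.39%) and 3 lower (7.89%, against 7.02%), shares near those of all genes. Of the Wnt antagonists DKK1 was higher by 2.09 and DKK3 lower by 5.04, although a second probe set of DKK3 differed by only -0.09. That probe set averaged 3.94 over all 36 arrays, below the olfactory receptor limit of either line, so it can show little difference. Of 21 growth factor ligands 6 were higher (28.6%, against 7.39%) and 4 lower (19.0%, against 7.02%). FGF5 and FGF1 were higher by 3.24 and 2.79, and KITLG (stem cell factor) and HGF lower by 3.16 and 3.01.

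Metabolic lists held differences in both directions. Of 25 genes of cholesterol and fatty acid synthesis 6 were lower (24.0%, against 7.02%) and 2 higher (8.0%, against 7.39%), the lower among them SQLE (-2.12), HMGCS1 (-1.89) and FASN (-1.17). Of 29 glycolysis and hypoxia genes 4 were higher (13.8%, against 7.39%) and 3 lower (10.3%, against 7.02%), among them the glucose transporter SLC2A1 (1.46), PFKFB4 (2.61) and the carbonic anhydrase CA12 (-2.34). Detoxifying enzymes divided: GPX3, a glutathione peroxidase, read 10.09, 10.16 and 10.03 in MDA231, against 5.31, 5.3 and 5.48 in SUM159PT. The transporter ABCC2, the aldo-keto reductase AKR1C2 and the haem oxygenase HMOX1 were lower by 4.63, 4.20 and 3.47. AKR1C genes share much of their sequence, so values of single members are uncertain.

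Of 22 cancer-testis antigens, genes silent outside the germ line, 7 were lower (31.8%, against 7.02%) and 0 higher (against 7.39%). MAGEC2 read 4.75, 4.59 and 4.74 in MDA231, against 10.44, 10.46 and 10.46 in SUM159PT. Of 27 HOX genes, which record position along the body, 3 were higher (11.1%, against 7.39%) and 3 lower (11.1%, against 7.02%). These shares were not far from those of all genes. HOXB9 was higher by 3.47, and HOXC10, HOXC13 and HOXC9 were lower by 3.96, 2.44 and 1.76. Of 23 genes of MYC function and ribosome biogenesis 0 were higher (against 7.39%) and 1 lower (4.35%, against 7.02%), the low-level MYCN. Of 8 measured markers of blood, endothelial and stromal cells, 3 in MDA231 and 5 in SUM159PT were above the olfactory receptor limit. CD3E, HBB and LUM were at the level of silent genes in both lines. The leukocyte gene PTPRC read 3.95 in MDA231 and 5.75 in SUM159PT, CD14 5.29 and 6.94, and the endothelial genes PECAM1 7.37 and 7.11 and CDH5 5.02 and 4.90. DCN, given above, read 3.59 and 10.15. The part of other cell types in any result was not tested.

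The treated arrays allow a further comparison. For each gene the line difference in a treated condition was compared with that in control cells. All 3 tests use the same 6 control arrays. The siRNA target DUSP4 itself read 7.43, 7.76 and 7.72 under siDUSP4, against 10.15, 10.03 and 9.99 in control cells of MDA231, and 5.29, 5.28 and 5.32 under siDUSP4, against 7.28, 7.08 and 7.06 in control cells of SUM159PT. The difference changed at 1201 genes under siDUSP4 (6.69% of those tested), 284 after 4 h of selumetinib (1.58%) and 985 after 24 h (5.49%). With repeated quantile normalization the counts were 2171, 736 and 1686, and with the source names followed 2394, 211 and 1611. The 4 h count depends on single arrays. MDA231 arrays B and C of that group had low upper quartiles (7.48 and 7.66), the median line difference over all genes was -0.14 there, and the count was 2859 without array A of that group. It was 135 to 172 without MDA231 4 h array C, SUM159PT 4 h array A, MDA231 control array A or C, or any of the 3 SUM159PT control arrays.

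After 24 h of selumetinib the difference was lower than in control cells for 13 of the 31 ERK output genes and higher for 2. Over all genes it was lower for 2.52% and higher for 2.96%. SPRY4, a Sprouty inhibitor of the pathway, differed by -0.32 at 24 h and 1.59 in control cells, a change of -1.91 ± 0.30 (adjusted p = 6.22e-05). DUSP5 differed by 0.48 at 24 h and 2.02 in control cells, and LIF by 1.97 and 3.44. In SUM159PT LIF averaged 4.31 at 24 h and 4.44 in control cells, both below the control olfactory receptor limit of 4.64. LIF thus had little room to fall in that line, and its line difference could shrink only through MDA231 (6.28 at 24 h and 7.89 in control cells) or through a rise in SUM159PT. FOSL1, an AP-1 subunit, differed by 1.35 at 24 h and 2.65 in control cells. For DUSP6 the difference was 2.62 at 24 h and 3.50 in control cells, with a change of -0.89 ± 0.29 that did not pass the test (adjusted p = 0.0749). DUSP4 (2.51 at 24 h and 2.92 in control cells) and PHLDA1 (3.22 and 2.68) did not pass either. At 24 h 9 of the 31 genes were 2-fold higher in MDA231 (against 6.96% of all genes) and 4 were 2-fold lower (against 6.28%). SPRY4 and FOSL1 were chosen here after their values were seen.

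**Figure D5:**
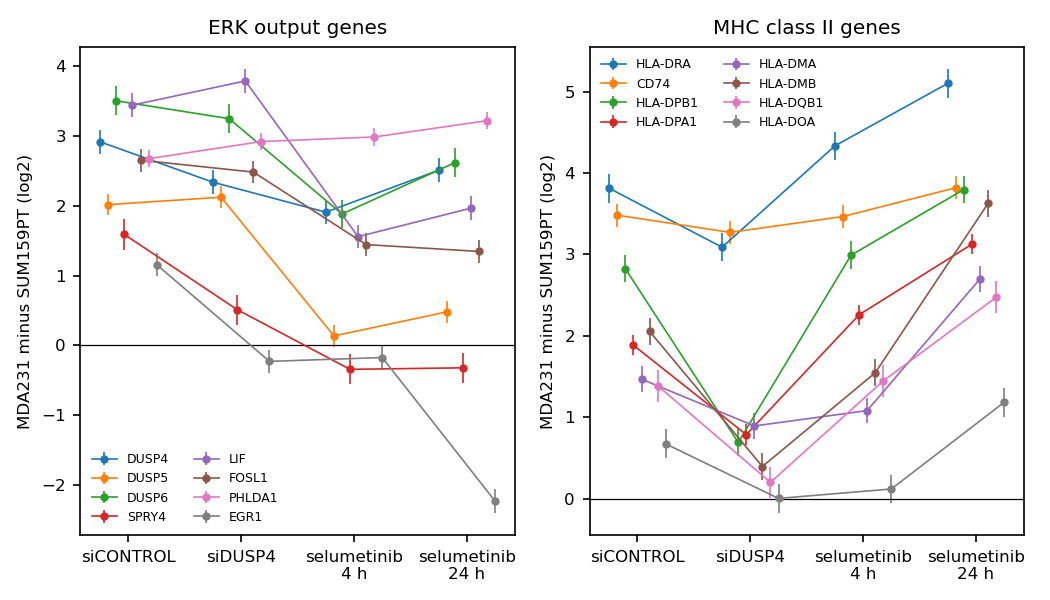
Line difference, MDA231 minus SUM159PT (log2), in control cells, after siDUSP4 and after 4 h and 24 h of selumetinib, for 8 ERK output genes (left) and 8 class II genes (right). Bars are limma SEs, with 3 arrays a line in each condition. SPRY4 and EGR1 lie below 0 at 24 h, and each class II gene drawn lies highest at 24 h and lowest under siDUSP4. HLA-DQA1, CIITA and CTSS of the class II list are not drawn. Of these CTSS was highest under siDUSP4 (1.92), and HLA-DQA1 was lowest at 4 h (-0.32).

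The largest fall of the line difference at 24 h among the named genes was that of TNFSF15, at -4.50 ± 0.30 (adjusted p = 2.20e-12). Its mean in MDA231 was 5.74 at 24 h, against 10.36 in control cells, and in SUM159PT it was 4.30, against 4.43 in control cells. Both SUM159PT means lay below the control olfactory receptor limit of 4.64, so TNFSF15 had little room to fall there. EGR1, an immediate early transcription factor, averaged 5.56 at 24 h and 9.10 in control cells of MDA231, and 7.79 and 7.94 in SUM159PT, so its line difference was -2.23 at 24 h and 1.16 in control cells. NLRP3, the inflammasome sensor, differed by 0.52 at 4 h and 3.02 in control cells, a change of -2.49. ESM1 and CST1 had changes of -2.54 and -2.65 at 24 h. At 4 h RASD1 (a small GTPase), CDC42EP2 and TGFA followed NLRP3 with changes of -2.24, -2.14 and -2.0. In the other direction CCL20 and STC2 had changes of 1.55 and 1.36 at 4 h.

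Some differences moved toward MDA231 at 24 h. The serpin SERPINB3, which was 73.4-fold lower in MDA231 control cells, averaged 8.93 at 24 h and 5.54 in control cells of MDA231, and 11.29 and 11.74 in SUM159PT. The fibrinogen chains FGG and FGB, at the level of silent genes in both lines in control cells, averaged 7.64 and 7.07 in MDA231 at 24 h, and 4.69 and 4.21 in SUM159PT. PDE7B, a phosphodiesterase, had a change of 3.18.

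The line difference of several class II genes, though not of all, changed in opposite directions under the 2 treatments. At 24 h of selumetinib 7 of the 11 had a larger line difference (against 2.96% of all genes) and 0 a smaller one (against 2.52%). Under siDUSP4 4 had a smaller one (against 3.54% of all genes) and 0 a larger one (against 3.15%). HLA-DRA differed by 5.10 at 24 h and 3.81 in control cells, a change of 1.29 ± 0.25 (adjusted p = 0.000661). HLA-DMB, which helps peptides onto class II, differed by 3.63 at 24 h, 0.40 under siDUSP4 and 2.06 in control cells. In SUM159PT HLA-DMB averaged 4.96 and HLA-DQB1 4.90 in control cells, close to the olfactory receptor limit of 4.64. These genes, both with a smaller line difference under siDUSP4, thus had little room to fall in SUM159PT. HLA-DPB1 averaged 7.56 under siDUSP4 and 10.25 in control cells of MDA231, and 6.87 and 7.42 in SUM159PT, a change of -2.13 ± 0.24 (adjusted p = 2.84e-07). HLA-DRA was also lower under siDUSP4 within each line, at 8.38 under siDUSP4 and 10.95 in control cells of MDA231, and at 5.29 and 7.14 in SUM159PT, and its line difference did not change by the test (adjusted p = 0.0744). CD74 differed by 3.82 at 24 h and 3.48 in control cells, a change that did not pass the test (adjusted p = 0.49). Under siDUSP4 CTSS differed by 1.92 and HLA-DQA1 by 0.43, against 1.63 and -0.24 in control cells. Neither of these 2 changes passed the test (adjusted p = 0.525 and 0.353).

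Under siDUSP4 the largest upward change among the named genes was that of MMP3, the matrix metalloproteinase stromelysin 1. It averaged 9.38 under siDUSP4 and 5.87 in control cells of MDA231, and 3.84 and 3.87 in SUM159PT, a change of 3.54 ± 0.23 (adjusted p = 8.01e-12). TDO2, which degrades tryptophan, GPRC5B, the cytochrome CYP1B1 and the protease inhibitor SPINK1 had changes of 2.98, 2.84, 2.68 and 2.65. On the other side H6PD had a change of -1.78 and S100A8 one of -1.82. S100A8 averaged 3.96 under siDUSP4 and 3.91 in control cells of MDA231, and 9.0 and 7.14 in SUM159PT. The siRNA pool's effects on other transcripts were not tested.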

How the data were processed

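Gene expression was measured on single-colour Affymetrix arrays, 36 in 12 groups of 3. The deposited values are log2 levels per probe set, and per the submitters' processing notes the authors used RMA and Affymetrix Expression Console 1.1. Arrays give no read depth, so their number limits the precision. Of 33297 probe sets 19181 had 1 gene symbol, 2055 had several and 12061 were not listed in the platform annotation. Of several probe sets of a gene the one with the highest mean over 36 arrays was used, which gave 17958 genes.

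One mean per group was fitted over all 36 arrays (limma 3.58.1, R 4.3.3), with Benjamini-Hochberg adjustment over all genes and calls at an adjusted p under 0.05 and at least 2-fold. The procedure was checked on simulated data. Lines were taken from the titles. The labels do not say that the replicate letters pair the samples, and the main fit used no pairing. Named genes (265 by the rule) were the 15 largest differences each way (passing over unnamed loci, small RNAs and pseudogenes), up to 4 called members each way per list (or, with none called, the one with the lowest p), the 5 largest changes each way per treatment, a few genes always given, and markers. The members and lists were chosen with earlier results of these data known. Some genes of the lists, one of them meant for the label check, were not analysed here. HLA, MAGE, AKR1C, SAA and ORM genes have close relatives that could share probes.

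Alternatives were the arrays fitted, the replicate letter as a block, the scaling, a filter on dim genes, the mean of a gene's probe sets, the fold minimum, the source names for the line, and leaving out each array.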

Additional observations from a re-analysis of the deposited data

Results flagged for a closer look

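These genes are listed because the difference between the lines was not the same in treated as in control cells, by a test of that change (limma, adjusted over all genes). All values are changes of the difference MDA231 minus SUM159PT on the log2 scale, treated minus control, and the 3 treatments share the control arrays. Under siDUSP4 the changes were 3.54 for MMP3, 2.98 for TDO2, 2.84 for GPRC5B, 2.68 for CYP1B1, 2.65 for SPINK1, -2.13 for HLA-DPB1, -1.66 for HLA-DMB, -1.82 for S100A8 and -1.78 for H6PD. After 4 h of selumetinib the changes were -2.49 for NLRP3, -2.24 for RASD1, -2.14 for CDC42EP2, -2.08 for TNFSF15, -2.0 for TGFA, 1.55 for CCL20 and 1.36 for STC2. After 24 h of selumetinib the changes were -4.50 for TNFSF15, -3.39 for EGR1, -2.61 for NLRP3, -2.54 for ESM1, -2.65 for CST1, 3.84 for SERPINB3, 3.24 for FGG, 2.76 for FGB, 3.18 for PDE7B, -1.54 for DUSP5, -1.91 for SPRY4, -1.48 for LIF, -1.31 for FOSL1, 1.29 for HLA-DRA, 1.57 for HLA-DMB and 0.97 for HLA-DPB1. The 4 h values rest on arrays of which MDA231 B and C stand apart, and the part of those arrays was not tested for single genes beyond leaving each out. Groups of 3 arrays were too small for a search for single outlying samples.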

How the results depend on the processing

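The counts of calls in control cells lay within 1.5 times the main counts (1327 higher and 1260 lower) under every alternative but the fold minimum: 4151 and 3897 genes with none, 422 and 443 at 4-fold. Leaving out each of the 6 control arrays gave 1306 to 1363 higher and 1247 to 1273 lower. Leaving out dim genes cut the counts to 1135 and 1057, with fewer genes tested. A list's median difference was counted as moved when it shifted by more than the spread of that list between arrays. Without dim genes 13 list medians moved and 28 did not. Repeated quantile normalization gave 1344 and 1223, and aligned medians 1479 and 1141. The replicate letter as a block gave 1327 and 1260, and moved no count by over 1.5 times. Same-lettered control arrays of the 2 lines correlated at -0.028, -0.12 and -0.13 in their deviations from the group mean. Pairing by letter within a line was not tested. Over all 24 arrays of both lines, left out in turn, calls made again numbered 2074 to 2109 under siDUSP4, 2011 to 2116 at 4 h and 1907 to 1950 at 24 h, and changes of the line difference 802 to 1792, 135 to 2859 and 763 to 1345. These and the other alternatives in the treated conditions were chosen after seeing the data. Quantile normalization gave 2171, 736 and 1686 changes, and the cause was not tested. With single control arrays left out CDH1 ranged over -0.032 to 0.13 and HBB over -0.052 to 0.14, changing sign without SUM159PT replicate C and MDA231 replicate C, and neither was called.

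With the source names followed, SUM159PT being then the arrays titled BT549, the calls were 1450 higher and 1554 lower, and the changes of the line difference 2394 under siDUSP4, 211 at 4 h and 1611 at 24 h. By the rule above 26 list medians then moved and 15 did not. Single genes were checked for 222 of those named. Of the named genes the sign then turned for 59, whose log2 differences became AKR1C2 0.17, ANGPTL4 -0.047, BMF 0.35, BST2 1.66, C3 0.43, CA12 0.82, CASP1 2.32, CCL20 0.33, CD14 0.78, CD44 -0.052, CDC25C -0.37, CDC6 -0.16, CDH1 -0.74, CDKN1A -0.30, CDKN2A -5.59, CHRDL1 -1.08, CYP1B1 -3.40, DDR1 0.26, EGFR -0.66, ERAP2 1.63, ERBB2 0.0011, FASN 0.60, FGG 0.21, FN1 1.21, FOXO1 0.97, GBP4 0.39, H6PD -0.74, HES1 0.41, HMGCS1 0.32, IFITM1 2.60, IGF2BP3 -0.0078, JUP 2.45, KRT18 1.04, KRT7 1.48, KRT8 3.65, LIF -0.21, LUM -1.57, MAGEC2 0.087, MAOA 2.90, NIBAN1 -1.19, NRG1 -1.46, ORM1 0.19, PDE7B -2.60, PLK2 -0.56, PTPRC 0.12, PXDN -0.32, PYGL -0.22, ROS1 0.17, SAA1 1.82, SERPINA1 1.08, SERPINB3 0.99, SERPINB5 0.14, SESN1 0.57, SGK1 -1.18, SOS2 -0.21, SPINK1 0.048, TNC -0.11, TSPAN5 -0.12 and ZEB1 -0.51. The changes of CCL20 at 4 h and PHLDA1 at 24 h became -0.093 and -0.047. A further 45 named genes were no longer called and 5 became called, and the cause was not tested.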
